A study of Mus musculus with 2 samples.

Results

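The X-linked germline miRNA cluster of the mouse was examined in small RNA libraries from the muscle wall of the jejunum. Its members were taken by name, as every mature entry of 18 miRNAs (miR-201, miR-463, miR-465a, miR-465b, miR-465c, miR-470, miR-471, miR-547, miR-741, miR-742, miR-743a, miR-743b, miR-871, miR-878, miR-880, miR-881, miR-883a and miR-883b). Of the 1147 entries in the deposited table, 28 belonged to the cluster, and each of the 18 names had at least 1 listed arm. None of the 67 entries that carry the name of a hairpin precursor belonged to it. The RefSeq sequence table (build GRCm38.p6) holds 36 mature miRNAs for these names, so 8 had no value here, namely miR-201-3p, miR-463-3p, miR-465a-3p, miR-465c-3p, miR-470-3p, miR-547-5p, miR-742-3p and miR-880-5p.

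The study compared the jejunal smooth muscle of 15-day-old mice with and without DNMT1, with 1 library per genotype. Both samples are labelled with the transgene Tg(Myh11-cre,-EGFP)2Mik on a C57BL/6 background, so the *Dnmt1*-WT controls carry *Cre* recombinase and eGFP as well. Both also carry the label Dnmt1lox/lox for the floxed gene. For the *Dnmt1*-WT sample that label conflicts with its group, because *Cre* together with the floxed gene is the knockout design. The paper describes its *Dnmt1*-WT mice by the *Cre* and eGFP transgene and names no floxed gene for them. The *Myh11* promoter, which is active in smooth muscle cells, drives *Cre*. In *Dnmt1*-KO mice the deletion is therefore directed to cells that use this promoter or used it earlier, and to their descendants. By this design the other cells of the tissue keep *Dnmt1*, and which cells lost it was not measured in these libraries. The genotype label of each sample set its group. The description of the *Dnmt1*-WT sample names the mutant genotype, unlike its title and genotype label, and was not used. Males and females are listed in equal numbers for each genotype, and whether their RNA was pooled into the single library is not described. The *Dnmt1* transcript is not measured in small RNA, so the labels could not be checked against it.

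MicroRNAs are cut from hairpin precursors, and either arm of the hairpin, called 5p or 3p, can become the mature miRNA. The seed, which here means bases 2 to 8 of the mature miRNA, is the stretch that pairs with target mRNAs. The members of this cluster are known as miRNAs of the testis, where germ cells and Sertoli cells express them, and they lie between *Slitrk2* and *Fmr1* on the X chromosome. DNMT1 copies methylation onto the new DNA strand after replication, and DNA methylation is known to keep many germline genes silent in somatic cells. Methylation of the cluster was not measured in these libraries.

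The mature sequences of the 15 members that reached at least 10 normalised reads in *Dnmt1*-KO are shown because nearly all reads of the cluster carry them. They are RefSeq sequences, written 5′ to 3′ with the seed in capitals and grouped by shared seed where one is shared.
mmu-miR-465a-5p: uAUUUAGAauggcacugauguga
mmu-miR-465b-5p: uAUUUAGAauggugcugaucug
mmu-miR-465c-5p: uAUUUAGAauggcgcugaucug
mmu-miR-743a-3p: gAAAGACAccaagcugaguaga
mmu-miR-743b-3p: gAAAGACAucaugcugaauaga
mmu-miR-871-3p: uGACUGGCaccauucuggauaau
mmu-miR-871-5p: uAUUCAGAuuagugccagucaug
mmu-miR-470-5p: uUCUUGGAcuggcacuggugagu
mmu-miR-465b-3p: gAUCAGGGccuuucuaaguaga
mmu-miR-878-5p: uAUCUAGUuggaugucaagaca
mmu-miR-741-3p: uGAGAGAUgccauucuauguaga
mmu-miR-881-3p: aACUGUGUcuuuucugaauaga
mmu-miR-463-5p: uACCUAAUuuguuguccaucau
mmu-miR-883a-3p: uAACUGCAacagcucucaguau
mmu-miR-471-5p: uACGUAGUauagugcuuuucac

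Among all 28 members there were 23 different seeds, and 4 of them occurred in more than 1 member, covering 9 members. The 5p arms of miR-465a, miR-465b and miR-465c share AUUUAGA, the 3p arms of miR-743a and miR-743b share AAAGACA, and the 3p arms of miR-883a and miR-883b share AACUGCA. The seed AUUCAGA is common to miR-871-5p and miR-743a-5p, which come from different hairpins. None of the 23 seeds occurred in a listed miRNA outside the cluster that could be matched to a RefSeq sequence. Among the matched entries, these seeds were thus carried by the cluster alone.

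Outside the seed the copies differ by few bases, with positions counted from 1 at the 5′ end. miR-465b-5p and miR-465c-5p differ by the single change U13C. miR-465c-5p differs from miR-465a-5p by G14A and C20G, next to a length that is 1 base shorter. miR-743b-3p differs from miR-743a-3p by U9C, U12A and A18G, and miR-883a-3p differs from miR-883b-3p by G12U. miR-465b-3p is identical to the 3p arms of miR-465a and miR-465c, which had no value here, so reads of these 3p arms cannot be told apart and its entry may hold all of them.

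The members share features that their names did not determine. Of the 28 members, 21 (75.0%) begin with U, against 355 of the 890 other listed mature miRNAs that matched RefSeq (39.9%). The last 4 bases were UAGA in 7 of the 12 listed 3p arms (58.3%), a group that includes miR-465b-3p, miR-741-3p, both miR-743 copies and miR-881-3p. The same ending was found in 2 of 383 other listed 3p arms (0.522%) and in 12 of all 709 RefSeq 3p arms (1.69%). The RefSeq count includes the cluster's own 3p arms with this ending, so it is not a rate outside the cluster. The median length was 22 bases in both sets, and the median GC content was 40.0% in the members and 50% in the other listed miRNAs. Several members are near-copies of each other, so they are not independent examples of these features.

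In *Dnmt1*-WT the cluster was nearly absent at this depth. The deposited values, called normalised reads here, are read counts times a factor per library, and 1 unit is close to 1 read. The *Dnmt1*-WT library held 5741906 normalised reads and the *Dnmt1*-KO library 4754677. Of the 28 members, 25 were listed at 0 in *Dnmt1*-WT, and the other 3 were miR-547-3p at 6.0, miR-201-5p at 3.0 and miR-743a-3p at 1.0. For a value of 0, counting error still allows an expected level of up to 3 reads, which is the floor used here. This floor is 5.24e-05% of the *Dnmt1*-WT library and 6.29e-05% of the *Dnmt1*-KO library. In *Dnmt1*-KO all 28 members were above 0. Intervals and floors given here cover counting error only, because the reads carry no molecular identifiers and there is no second library of either genotype.

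The most abundant member was miR-871-3p, listed at 0 in *Dnmt1*-WT and at 1207.6 in *Dnmt1*-KO. Set against this floor of 3 reads, its *Dnmt1*-KO value was at least 401-fold higher, and the lower 95% limit of its ratio with the counting error of both libraries was 326. Close behind stood miR-470-5p, from the neighbouring hairpin, at 0 and 989.2, which is at least 329-fold higher with a lower limit of 267. No other member came close to this level. They ranked 129 and 142 among the 978 entries above 0 in *Dnmt1*-KO, and together they held 69.8% of the summed reads of the cluster.

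Next came 3 members with more than 100 normalised reads in *Dnmt1*-KO and 0 in *Dnmt1*-WT. miR-465b-3p was listed at 205.4, which is at least 68.3 times the floor (lower limit of the ratio 55.0). miR-743b-3p, the last abundant miRNA at the far end of the block, was listed at 184.5 (at least 61.3-fold, lower limit 49.4), and miR-465c-5p at 142.1 (at least 47.2-fold, lower limit 37.8). With these, 5 members made up 86.7% of the cluster's reads.

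A further 10 members were between 10 and 100 in *Dnmt1*-KO. The second arm of miR-871, miR-871-5p, was listed at 61.8, miR-465b-5p at 61.3 and miR-878-5p at 50.9. miR-741-3p reached 47.9, miR-881-3p 35.9, miR-465a-5p 29.9 and miR-463-5p 21.9. miR-883a-3p stood at 18.0, miR-471-5p at 14.0 and miR-743a-3p at 11. All of these but miR-743a-3p were at 0 in *Dnmt1*-WT, and their bounds against the floor ran from at least 20.5-fold for miR-871-5p to at least 4.65-fold for miR-471-5p. miR-743a-3p had a single read in *Dnmt1*-WT, which gives a ratio of 11 with a lower 95% limit of 1.59 and an upper limit far above it.

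The remaining 13 members were under 10 in *Dnmt1*-KO. Those above the floor and at 0 in *Dnmt1*-WT were miR-471-3p at 9.0, miR-743b-5p and miR-878-3p at 8.0, both arms of miR-883b at 5.0, and miR-880-3p and miR-881-5p at 4.0. At or under the floor in both libraries were miR-743a-5p at 3.0, miR-741-5p and miR-742-5p at 2.0, and miR-883a-5p at 1.0. For these 4 a difference between the genotypes was not detectable at this depth. The same holds for both arms of miR-883b, with a lower 95% limit of the ratio of 0.911, and for miR-880-3p and miR-881-5p with 0.656, whereas the limits of miR-471-3p (1.96), miR-743b-5p and miR-878-3p (1.70 each) were above 1. Of the 13 members, 7 are the lesser arm of a hairpin whose other arm was more abundant.

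**Figure D1:**
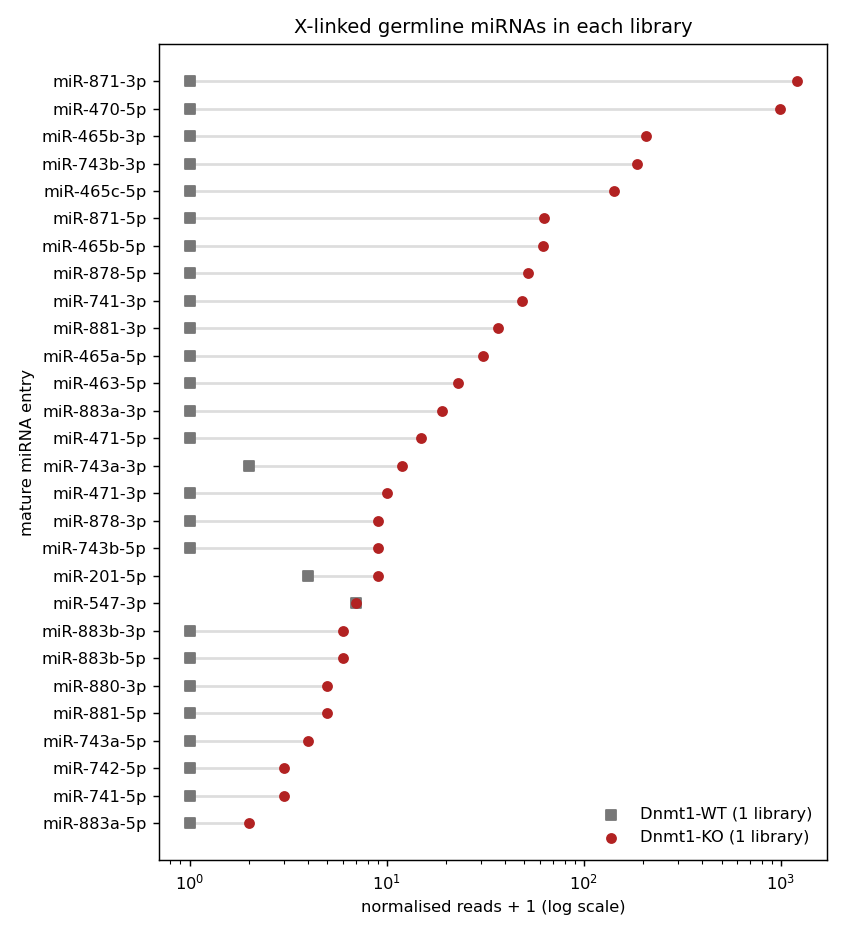
Normalised reads plus 1 on a log scale for each of the 28 members in *Dnmt1*-WT (grey squares) and *Dnmt1*-KO (red circles), 1 library each. The 25 members at 0 in *Dnmt1*-WT sit at the left edge, whereas *Dnmt1*-KO values run from 1.0 for miR-883a-5p to 1207.6 for miR-871-3p, and both points coincide at 6.0 for miR-547-3p.

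The plot of member levels shows 2 members that stand apart from the pattern. miR-547-3p was equal in both libraries at 6.0 (ratio 1.0, 95% interval 0.266 to 3.72), and miR-201-5p was listed at 3.0 in *Dnmt1*-WT and 8.0 in *Dnmt1*-KO (ratio 2.67, 0.636 to 15.5). Both intervals include 1, so no difference was detectable for either. These are also the members whose hairpins lie apart from all others on the chromosome. On the sum of this pair the values were 9.0 and 14.0, a ratio of 1.56 (0.624 to 4.05). For the other 26 members the summed values were 1.0 and 3132.4, a ratio of 3130 with an interval of 560 to 123000. This split was made after the values were seen, so it describes the members and tests nothing.

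Over all 28 members the sum was 10 in *Dnmt1*-WT and 3146.4 in *Dnmt1*-KO, a ratio of 315 (95% interval 170 to 655). As a share of the library this was 0.000175% (95% Wilson interval 9.49e-05 to 0.000322%) and 0.0662% (0.0639 to 0.0685%). The cluster was thus higher in *Dnmt1*-KO by much more than counting error, and still a small part of the library. In bulk tissue, a few cells with much of a miRNA and many cells with little of it cannot be told apart.

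The members were set against the whole table. At least 2-fold higher values in *Dnmt1*-KO were found for 27 of the 28 members, where 26.7% of all entries met that threshold. Members above 0 in *Dnmt1*-KO and at 0 in *Dnmt1*-WT numbered 25 of 28, against 16.0% of all entries. At a mean of both libraries of at least 10, all 12 of the 12 members that passed this filter were at least 2-fold higher, against 11.4% of the 543 entries that passed it. These 12 passed only through their *Dnmt1*-KO value, so their count is a description. The median of log2((KO + 1)/(WT + 1)) was 3.61 over the members and 0.02 over all entries. With most members at 0 in *Dnmt1*-WT, the size of the members' median depends on the pseudocount. It was 1.10 with a pseudocount of 10, and 2.04 with *Dnmt1*-WT set to the floor and no pseudocount.

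The clearest contrast was among miRNAs seen in only 1 library. A value of at least 10 in *Dnmt1*-KO together with 0 in *Dnmt1*-WT was found for 14 entries, or 1.22% of the table, and all 14 were members. Of the 184 entries seen only in *Dnmt1*-KO, the 17 highest were members, and the highest entry from outside the cluster was miR-103-2-5p at 7.0. In the other direction, 169 entries were seen only in *Dnmt1*-WT, with a highest value of 7.0 for miR-5108, and none was a member. In these 2 libraries, every miRNA that went from 0 in one to at least 10 in the other came from the cluster.

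**Figure D2:**
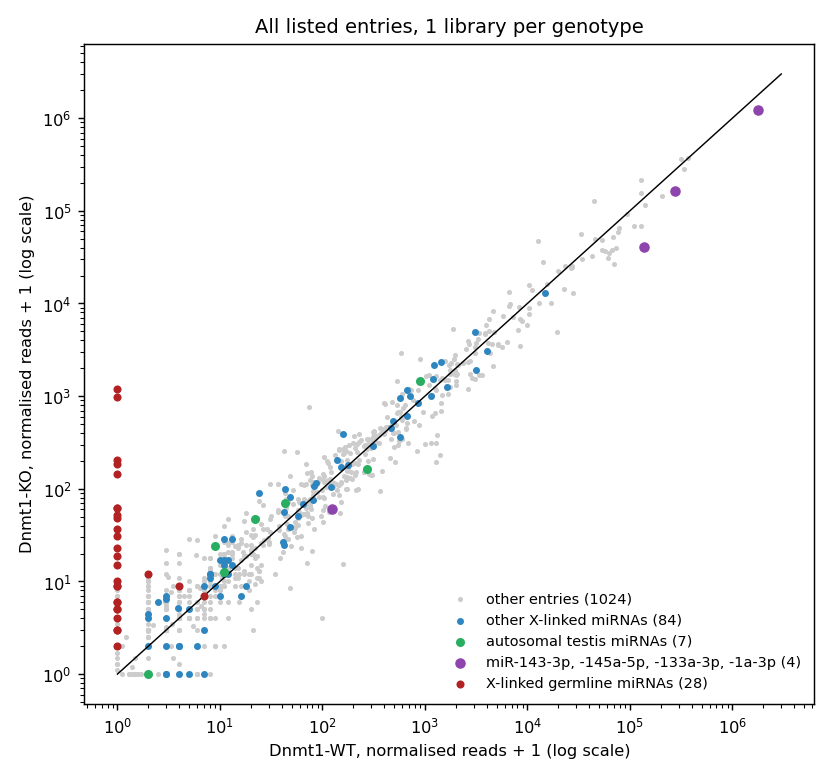
Normalised reads plus 1 of all 1147 entries in *Dnmt1*-WT (x axis) and *Dnmt1*-KO (y axis), both on log scales, with a line of equality and 1 library per genotype. The cluster (red) rises along the left edge up to 1207.6 in *Dnmt1*-KO, above other entries listed at 0 in *Dnmt1*-WT, which reach 7.0, while the other X-linked miRNAs (blue) and the autosomal testis miRNAs (green) lie on both sides of the line and 4 muscle miRNAs (purple) lie below it.

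The level of the cluster was read against muscle miRNAs, which mark the tissue. miR-143-3p, the best known miRNA of smooth muscle and the most abundant entry of *Dnmt1*-KO, was listed at 1777100.2 in *Dnmt1*-WT and 1232984.2 in *Dnmt1*-KO, and the latter was 392 times the summed cluster and 1020 times miR-871-3p. Its partner miR-145a-5p was listed at 275275.2 and 164498.8, and exceeded the summed cluster 52.3-fold in *Dnmt1*-KO. miR-133a-3p, a miRNA of contractile muscle, was listed at 137240.9 and 40502.4, or 12.9 times the cluster in *Dnmt1*-KO. All of the muscle miRNAs named here had lower values in *Dnmt1*-KO, but the abundant ones remained far above the cluster.

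miR-1a-3p, a miRNA of striated and cardiac muscle, was the exception in level. It was listed at 124.4 and 58.8 in the same order, and in *Dnmt1*-KO miR-871-3p alone was 20.5 times as abundant. In *Dnmt1*-KO, 13 of the 28 members were above the median of the entries listed above 0, which was 17.0. The 5 leading members ranked from 129 to 280 among these 978 entries.

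The hairpins lie in a block and a separate pair on the X chromosome, with all 20 on the minus strand (RefSeq positions on GRCm38.p6). The main block, chrX:66776757-66839125, spans 62.4 kb and holds 18 hairpins of the members. *Slitrk2*, which encodes a neuronal membrane protein, ends 115 kb to its left, and the nearest protein-coding gene to its right, *Gm1140*, begins 844 kb away. No hairpin of the block overlaps an annotated gene other than its own miRNA gene, so each is intergenic in the GENCODE annotation (vM21). The pair *Mir201* and *Mir547*, chrX:67988096-67988451, lies 1149 kb from the block and 690 kb before *Fmr1*, the gene of fragile X syndrome.

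In the order of the minus strand, the block begins with 5 copies of miR-465 (*Mir465* at 66839052 to 66839125, *Mir465b-2*, *Mir465c-2*, *Mir465b-1* and *Mir465c-1*). A further copy in the block, *Mir465d*, is not among the named miRNAs and had no listed value, although its 5p arm has the seed of the other copies. The 5 copies take up the first 13.1 kb and summed to 438.7 in *Dnmt1*-KO. *Mir470* (66813951 to 66814025) follows at 25.1 kb with 989.2, and *Mir871* (66810428 to 66810504) at 28.6 kb with 1269.4 for both arms. These first 3 loci, with the copies of miR-465 taken as 1, held 2697.3 normalised reads, or 85.7% of the cluster.

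The other 11 loci of the block begin at 37.1 kb and summed to 435.1. Between 37.1 and 42.2 kb lay *Mir881* at 39.9, *Mir878* at 58.9, *Mir880* at 4.0, *Mir463* at 21.9 and *Mir741* at 49.9, as sums of both arms. From 46.5 to 58.7 kb the sums were 23.0 for *Mir471*, 10 for *Mir883b*, 19.0 for *Mir883a* and 2.0 for *Mir742*. The highest of these 9 loci, *Mir878*, stood below the 438.7 of the miR-465 copies together and closer to their mean of 87.7 per hairpin. At the far end, *Mir743b* (66777256 to 66777332) at 61.8 kb stood out with 192.5, and *Mir743*, which gives miR-743a, was listed at 14.0.

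**Figure D3:**
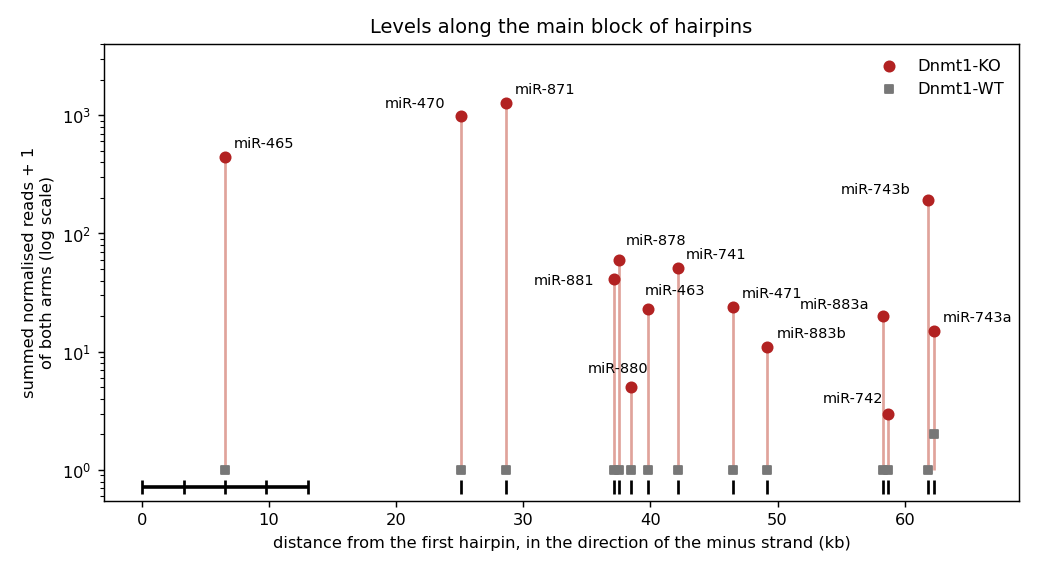
Sum of the normalised reads of both arms plus 1 (log scale) against the distance in kb of each hairpin from the first hairpin of the main block, in the direction of the minus strand, for *Dnmt1*-KO (red) and *Dnmt1*-WT (grey), with ticks for the hairpins and a bar joining the 5 miR-465 copies, whose values are added. The first 3 loci reach 438.7, 989.2 and 1269.4 in *Dnmt1*-KO, and the highest of the 11 others is miR-743b at 192.5.

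In the plot of levels along the block the highest sums were those of its first 3 loci, up to 28.6 kb, led by miR-871 and miR-470. Among the other loci, miR-743b was an exception near the far end. Across the 14 loci of the block, Spearman's rho between the *Dnmt1*-KO sum and the distance was -0.618, given as a description since the loci share 1 library and may share transcripts. The first value depends on adding 5 hairpins. With each sum divided by its number of hairpins, a choice made after the data were seen, miR-465 ranked 4 of 14, below miR-743b, and rho was -0.565. Without the miR-465 copies it was -0.538 over 13 loci. The start of transcription is not known from these data. Differences between loci also include differences in how well each miRNA is captured when a small RNA library is made, and that was not measured here.

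The hairpins of the leading members show where the leading arm lies, and they are given for the neighbours *Mir470* and *Mir871* because different arms lead their listed values. Both are RefSeq sequences on GRCm38.p6, 5′ to 3′ on the minus strand of chromosome X, with the more abundant mature miRNA of *Dnmt1*-KO in capitals.
Mir470: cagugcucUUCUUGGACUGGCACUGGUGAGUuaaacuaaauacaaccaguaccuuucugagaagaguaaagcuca
Mir871: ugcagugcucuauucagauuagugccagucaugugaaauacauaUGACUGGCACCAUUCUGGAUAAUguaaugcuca

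In *Mir470* the capitals cover bases 9 to 31, the 5p arm, and in *Mir871* they cover bases 45 to 67, the 3p arm. For miR-470 the 5p arm was listed at 989.2 and the 3p arm had no value. With that arm taken as 0, the 5p share was 100% with an exact 95% interval of 99.6 to 100%, but whether the arm was in the miRNA reference used for counting is not given in the sources used here. For miR-871 the 5p arm stood at 61.8 and the 3p arm at 1207.6, a 5p share of 4.87% (3.75 to 6.20%), so the 3p arm was 19.5-fold more abundant. Among the listed entries, these neighbours were led by opposite arms. Arm use in *Dnmt1*-WT could not be compared, because no hairpin of the block had more than 1 read there.

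Of the 12 loci with at least 10 normalised reads over both arms, 5 had more of the 5p arm, 6 had more of the 3p arm and 1 had equal values. Beside miR-470, the 5p arm led for miR-463 at 21.9 with no value for 3p, again taken as 0 (5p share 100%, 84.6 to 100%), and for miR-878 at 50.9 against 8.0 (86.4%, 75.0 to 94.0%). For these hairpins the whole interval lies above 50%. Among the 10 loci with a value for both arms, 3 had more 5p, 6 had more 3p, and 6 intervals were clear of 50%. The 3p arm led for miR-741 (2.0 and 47.9, 4.0%, 0.488 to 13.7%), miR-743b (8.0 and 184.5, 4.15%, 1.81 to 8.0%) and miR-883a (1.0 and 18.0, 5.26%, 0.133 to 26.0%). miR-881, with 4.0 and 35.9, also lay wholly below 50% (10%, 2.79 to 23.7%).

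For 4 of the 12 loci the interval of the 5p share included 50%. The miR-465 copies together had 233.3 on the 5p arm and 205.4 on the 3p arm, a 5p share of 53.2% (48.4 to 57.9%). Summed over the copies, the arms thus lay close to each other. This sum pools 5 hairpins, and arm use of each copy could not be given because their named 3p arms are identical. The other 3 had few reads. miR-471 stood at 14.0 and 9.0 (60.9%, 38.5 to 80.3%), miR-883b at 5.0 on each arm (50%, 18.7 to 81.3%) and miR-743a at 3.0 and 11 (21.4%, 4.66 to 50.8%). Over the whole cluster the 5p arms summed to 1404.1 and the 3p arms to 1742.3, a 5p share of 44.6%.

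**Figure D4:**
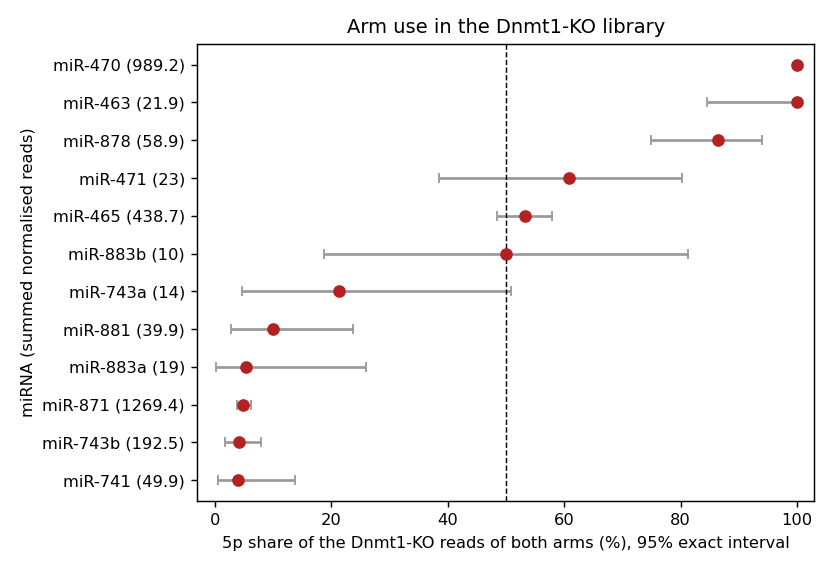
Share of the 5p arm among the *Dnmt1*-KO reads of both arms in percent, with exact 95% intervals (counting error only), for the 12 loci with a sum of at least 10, given in brackets as normalised reads. The shares run from 4.0% for miR-741 to 100% for miR-470 and miR-463, whose 3p arms had no value and were taken as 0, and 8 intervals stay clear of the dashed line at 50%.

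The miR-465 copies are also the members whose values are shared between entries. Dividing the *Dnmt1*-KO values by the step of 0.997 normalised reads per read gave whole numbers, within 0.1 read, for 26 of the 28 members. The exceptions were miR-465b-5p at 61.47 reads and miR-465c-5p at 142.49 reads, and their sum of 203.4 normalised reads corresponded to 203.96, which is 204 within the same tolerance. The pair thus adds up to whole reads only together, and the share of 69.9% for miR-465c-5p within it is less certain than the sum. The 3 mature 5p forms of miR-465 together stood at 233.3 in *Dnmt1*-KO and 0 in *Dnmt1*-WT.

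The other miRNAs of the X chromosome were compared with the cluster. Among 84 X-linked mature entries outside the cluster, 42 were higher and 37 lower in *Dnmt1*-KO, 14 of them at least 2-fold higher and 20 at least 2-fold lower. Among 46 entries whose mean reached 10, these counts were 5 and 2, so most of the 2-fold differences lay in entries of few reads. Their sum was 38601.3 in *Dnmt1*-WT and 39523.8 in *Dnmt1*-KO (ratio 1.02), and their median log2 ratio was 0.01, against 3.61 for the members. Of these, 4 were seen only in *Dnmt1*-KO, none of them at 10 or more, and 13 only in *Dnmt1*-WT. The most abundant, miR-351-5p, was listed at 14753.7 and 13041.0 (ratio 0.884, 0.863 to 0.905), a direction that turned with equal library totals (1.07). At a mean of at least 10 the highest ratio was that of miR-223-5p, a miRNA of myeloid cells, at 23.1 and 88.8 (3.84, 2.41 to 6.38), and the lowest that of miR-188-5p at 15.0 and 6.0 (0.400, 0.126 to 1.08). Setting library totals equal adds 0.27 to a log2 ratio taken without a pseudocount, and less to entries of few reads with one. The median of these 84 entries was then 0.27, with 19 at least 2-fold higher and 18 lower.

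Testis-expressed miRNAs of other chromosomes gave a second comparison. The miR-34b/c and miR-449 families, which are known from multiciliated cells and the male germline, had 7 entries, of which 5 were higher and 2 lower in *Dnmt1*-KO. miR-34c-5p, the most abundant, was listed at 903.6 in *Dnmt1*-WT and 1458.4 in *Dnmt1*-KO (ratio 1.61, 1.48 to 1.76). miR-34c-3p was listed at 8.0 and 22.9 (2.86, 1.23 to 7.39), whereas miR-449a-5p was listed at 272.8 and 161.5 (0.592, 0.485 to 0.722). Unlike the cluster, these miRNAs were already present in *Dnmt1*-WT and went both ways. Their sum was 1258.6 and 1769.0 (ratio 1.41), and their median log2 ratio was 0.69. No arm of miR-202, another testis miRNA on this list, had a listed value.

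**Figure D5:**
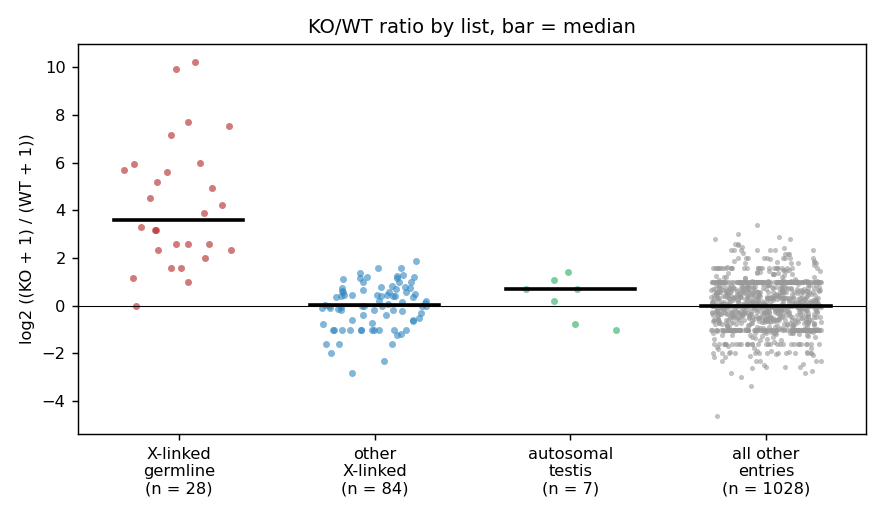
log2((KO + 1)/(WT + 1)) of each mature or hairpin-named entry by list, with 1 library per genotype, points spread sideways for visibility and a bar at the median of each list. The medians are 3.61 for the 28 members, 0.01 for 84 other X-linked miRNAs and 0.69 for 7 autosomal testis miRNAs, and the members reach 10.24.

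Markers of some other cells were also higher in *Dnmt1*-KO. All 7 leukocyte entries (miR-142a, miR-223, miR-150 and miR-155) were higher in *Dnmt1*-KO, with a sum of 1701.8 in *Dnmt1*-WT and 4936.0 in *Dnmt1*-KO (ratio 2.90). All 5 red cell entries (miR-451a, miR-144 and miR-486) were higher, with sums of 12823.2 and 47354.7 (ratio 3.69). Nearly all of both sums was miR-486a-5p, at 12591.6 and 46756.4 (ratio 3.71), so the ratio of the sums describes that entry. Whether its reads came from red cells was not tested. The other red cell entries had few reads by comparison. The liver miRNA miR-122-5p was listed at 72.2 and 769.8 (ratio 10.7), while miR-122-3p had 0 and 1.0. Every entry of the leukocyte and red cell lists was above 0 in both libraries. The part of these cells in the cluster's values was not tested.

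The sums of the epithelial and neuronal lists differed less between the libraries. The muscle layer had been peeled off the mucosa, and the source of the reads on the epithelial list was not tested. The 13 entries of the intestinal epithelium had sums of 14609.3 in *Dnmt1*-WT and 18296.3 in *Dnmt1*-KO (ratio 1.25), with 9 higher, and the 7 entries of enteric neurons had sums of 5681.1 and 6386.9 (ratio 1.12), with 3 higher. Muscle entries were lower for 8 of 9, with sums of 2217793.5 and 1446710.3 (ratio 0.652). Of the miRNAs that mark embryonic stem cells and primordial germ cells (the miR-290 to miR-295 and miR-302 clusters), 1 entry was listed, miR-293-5p, at 1.0 in *Dnmt1*-WT and 0 in *Dnmt1*-KO. No other miRNA of that list had a value.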

How the data were processed

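Small RNA libraries (Illumina TruSeq Small RNA kit) of jejunal smooth muscle were sequenced, 1 per genotype. The authors deposited 1 table of normalised reads (unit: other, read counts times a factor per library), and the submitters' processing notes name Bowtie and mm10. Versions, miRNA release, scaling and treatment of reads that match several miRNAs are not given in the sources used here. Among values from 20 to 300, 86.9% of 229 in *Dnmt1*-WT and 89.1% of 248 in *Dnmt1*-KO were whole multiples, within 0.05 of a value, of steps of 1.00 and 0.997, which gave 5725560 and 4767884 implied reads. The table's 1 column of the authors' own fold changes was not used.

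All 1080 mature and 67 hairpin-named entries were kept. Folds used deposited values, lists used log2 with a pseudocount of 1, ratio and arm intervals were exact (Clopper-Pearson) and library shares Wilson intervals (95%), and no p-value was computed because each genotype has 1 library. RefSeq sequences matched 918 mature entries by name, and 1075 were placed on a chromosome. Named miRNAs were all members, the leading arm of 4 muscle miRNAs, and the highest level and the highest and lowest ratio of the other X-linked and the autosomal testis list, with marker lists given mainly as sums. Members, lists and comparisons were chosen with earlier results of these data known. Alternatives were other minimum values, pseudocounts, equal totals and subsets of members. Interval and ratio code was tested on simulated data (Python 3.11.15, pandas 2.3.3, scipy 1.17.1).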

Additional observations from a re-analysis of the deposited data

How the results depend on the processing

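Equal library totals added 0.27 to log2 ratios taken without a pseudocount, and less to entries of few reads with the pseudocount of 1. They turned the direction of miR-351-5p, but of no result listed in this paragraph. Minimum values moved the counts: 14 rather than 25 members were seen only in *Dnmt1*-KO with at least 10 there (22 with at least 3), and 12 rather than 27 were at least 2-fold higher at a mean of at least 10, which members pass only through *Dnmt1*-KO, so it says nothing of stability. The members' median log2 ratio of 3.61 became 3.75 with equal totals, 1.10 with a pseudocount of 10, 5.97 at a mean of at least 10 and 2.04 with *Dnmt1*-WT at the floor. The summed *Dnmt1*-KO level of 3146.4 became 3473.0 with equal totals, 2707.7 without the miR-465 entries and 1938.8 without miR-871-3p, and the ratio of sums stayed between 194 and 380 under these. That ratio rests on the few *Dnmt1*-WT reads: it was at least 1040 without the 3 members above 0 there and 3130 without miR-201 and miR-547, an alternative chosen after seeing the data. At a sum of at least 30, 3 of 7 loci had more of the 5p arm, and among loci with both arms listed 3 of 10 did, also chosen after seeing the data. The median of the other X-linked miRNAs became 0.27 with equal totals and 0.16 at a mean of at least 10, and that of the autosomal testis miRNAs 0.96 with equal totals and 0.60 with a pseudocount of 10. Members on 1 to 3 reads cannot be told from absent ones at this depth. No paired analysis was possible because each genotype has 1 library.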
